A study of Mus musculus with 8 samples.

Results

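The adhesion molecules of the vessel wall that leukocytes use to enter tissue were followed as 8 genes in whole mouse aortas, namely the selectins Sele and Selp, the immunoglobulin family ligands Icam1, Icam2 and Vcam1, and the junctional adhesion molecules F11r, Jam2 and Jam3. They were chosen by name, with earlier results of these data known. Each is the row of the gene table that carries the symbol, or the row with the most counts where several rows carry it. All 8 were found among 48607 loci, and all 8 passed the filter on low values that 19930 loci passed.

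Leukocytes leave the blood in steps. Selectins on activated endothelium catch them and let them roll, integrins of the leukocyte then bind ICAM1, ICAM2 and VCAM1 and stop them, and the junctional molecules take part in the passage between endothelial cells. In atherosclerosis, this is the route by which monocytes reach the intima, and cytokines acting through NF-kB are known to induce E-selectin, ICAM1 and VCAM1, whereas ICAM2 is present on resting endothelium.

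Each library was made from poly(A) RNA of a whole aorta after 12 weeks of Western diet. All mice lacked ApoE, the apolipoprotein that clears remnant lipoproteins. By title, 5 libraries were ApoE-/- and 3 were NPRC-/-ApoE-/-, in which a systemic CRISPR frameshift in exon 1 of Npr3, the gene of natriuretic peptide receptor C, had been made on a C57BL/6 background, with ApoE-/- littermates as controls. For RNA sequencing the study's methods give 5 aortas of each genotype, while the series holds the 8 libraries used here. The methods describe the purchased ApoE-/- mice as male, and the labels give neither sex nor age for the 8 libraries.

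A second label, the genotype entry of the sample, matched the title in 4 libraries and contradicted it in 4. The libraries titled ApoE-/- 4 and 5 were entered as Nprc-/-Apoe-/-, and those titled NPRC-/-ApoE-/- 1 and 2 were entered as Apoe-/-. Each comparison was therefore made by title and again by genotype entry, 5 against 3 in both. Npr3 itself measured 1.69, 0.93, 0.62, 1.01 and 1.67 FPKM in ApoE-/- 1 to 5 and 1.18, 1.39 and 1.13 FPKM in NPRC-/-ApoE-/- 1 to 3. FPKM are fragment counts divided by transcript length and by library size. The groups overlapped under both labels, and since a frameshift need not change the amount of mRNA, this level checked neither label.

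The libraries held 62969165 to 86693276 counts. Among the adhesion molecules Icam2 had the fewest, with 342 to 611 per library, and Vcam1 the most, with 10721 to 67448. The endothelium was represented in all libraries, as all 10 endothelial markers (Pecam1, Cdh5, Tie1, Tek, Kdr, Erg, Emcn, Cldn5, Egfl7 and Robo4) were detected in each. Their mean level, in log2 CPM (counts scaled to library size), was 5.61 to 5.85 in libraries titled ApoE-/- and 5.67 to 5.74 in those titled NPRC-/-ApoE-/-. In whole tissue, fewer cells of a type and less RNA per cell cannot be told apart.

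The promoters of 4 of the 8 genes were found in RefSeq (GRCm38.p6), as 250 bases before and 50 bases after the start used there. For F11r and Icam1 that start is not the GENCODE start of the gene given further on. Motif positions are counted from the start used for the window. They are shown because only these 4 of the 8 genes had a window. All 4 are among the 5 genes that varied together across the libraries, as described further on, but were not chosen for that. Vcam1, the other of the 5, had no window. Capitals mark the AP-1 motif TGANTCA, which reads the same on both strands. The window of Sele lies at chr1:164047984-164048283, that of Selp at chr1:164115014-164115313, that of F11r at chr1:171437311-171437610 and that of Icam1 at chr9:21015690-21015989, all on the plus strand.
Sele: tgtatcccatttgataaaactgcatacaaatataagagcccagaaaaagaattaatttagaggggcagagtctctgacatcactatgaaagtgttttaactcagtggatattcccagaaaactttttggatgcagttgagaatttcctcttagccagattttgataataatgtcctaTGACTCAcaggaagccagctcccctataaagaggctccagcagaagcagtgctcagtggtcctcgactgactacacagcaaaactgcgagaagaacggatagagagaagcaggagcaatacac
Selp: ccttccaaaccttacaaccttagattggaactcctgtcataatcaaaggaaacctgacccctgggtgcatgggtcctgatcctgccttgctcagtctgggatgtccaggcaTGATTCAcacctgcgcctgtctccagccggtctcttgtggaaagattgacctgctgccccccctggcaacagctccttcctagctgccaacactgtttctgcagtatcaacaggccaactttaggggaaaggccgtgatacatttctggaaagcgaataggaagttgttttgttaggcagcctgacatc
F11r: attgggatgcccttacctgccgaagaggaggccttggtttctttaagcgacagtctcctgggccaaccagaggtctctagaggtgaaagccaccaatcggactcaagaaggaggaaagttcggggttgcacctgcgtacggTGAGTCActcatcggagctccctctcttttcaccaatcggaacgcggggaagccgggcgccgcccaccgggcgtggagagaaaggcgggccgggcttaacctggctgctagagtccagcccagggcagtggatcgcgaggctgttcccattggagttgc
Icam1: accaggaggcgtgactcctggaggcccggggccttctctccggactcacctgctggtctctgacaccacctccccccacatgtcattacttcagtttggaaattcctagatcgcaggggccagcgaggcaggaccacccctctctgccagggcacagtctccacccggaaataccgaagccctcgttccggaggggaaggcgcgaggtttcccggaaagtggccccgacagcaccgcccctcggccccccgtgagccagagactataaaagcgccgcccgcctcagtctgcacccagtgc

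One AP-1 motif was found in the windows of Sele (−73 to −67 from the start), Selp (−139 to −133) and F11r (−109 to −103). None was found in that of Icam1. Of all 32851 promoter windows of the same length, 7.81% held the motif. The 10-base NF-kB consensus GGGRNWYYCC (R is A or G, W is A or T, Y is C or T, N is any base) was searched on both strands. It matched in none of the 4 windows and in 4.51% of all windows. Sites that depart from this pattern were not searched, so the windows may hold other NF-kB sites. A match is a string of letters and not a measured site. Icam2, Jam2 and Jam3 also had no window in the table used here.

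Vcam1, the ligand of the leukocyte integrin VLA-4, was the highest of the 8 molecules in FPKM in all 8 libraries, with a mean of 34.5 FPKM. It took 30.6 to 51.8% of their summed FPKM. It was 2.40 to 3.92 times as high as Selp, the next by mean level. Selp (10.3 FPKM), Icam1 (9.82) and Jam3 (8.18) followed and changed places between libraries, Selp being above Icam1 in 4 of 8 libraries and Icam1 above Jam3 in 5. Next came F11r, with a mean of 6.60 FPKM and below Jam3 in 6 libraries. F11r was above Sele (4.34) in 8 of 8. Sele and Jam2 (4.06) had no fixed order, with Sele above Jam2 in 4 libraries. Icam2 had the lowest mean, 2.61 FPKM, and was the lowest of the 8 molecules in 6 libraries, while Sele was the lowest in NPRC-/-ApoE-/- 2 and 3.

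The spread separated the molecules into a steady and a variable set. Jam3, Icam2 and Jam2 had coefficients of variation over the 8 libraries of 7.10%, 10.7% and 10.8%. F11r was intermediate with 22.0%. The value was 33.8% for Icam1, 41.2% for Selp, 47.8% for Sele and 51.4% for Vcam1. The highest library had 4.84 times as much Vcam1 as the lowest but only 1.24 times as much Jam3.

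**Figure D1:**
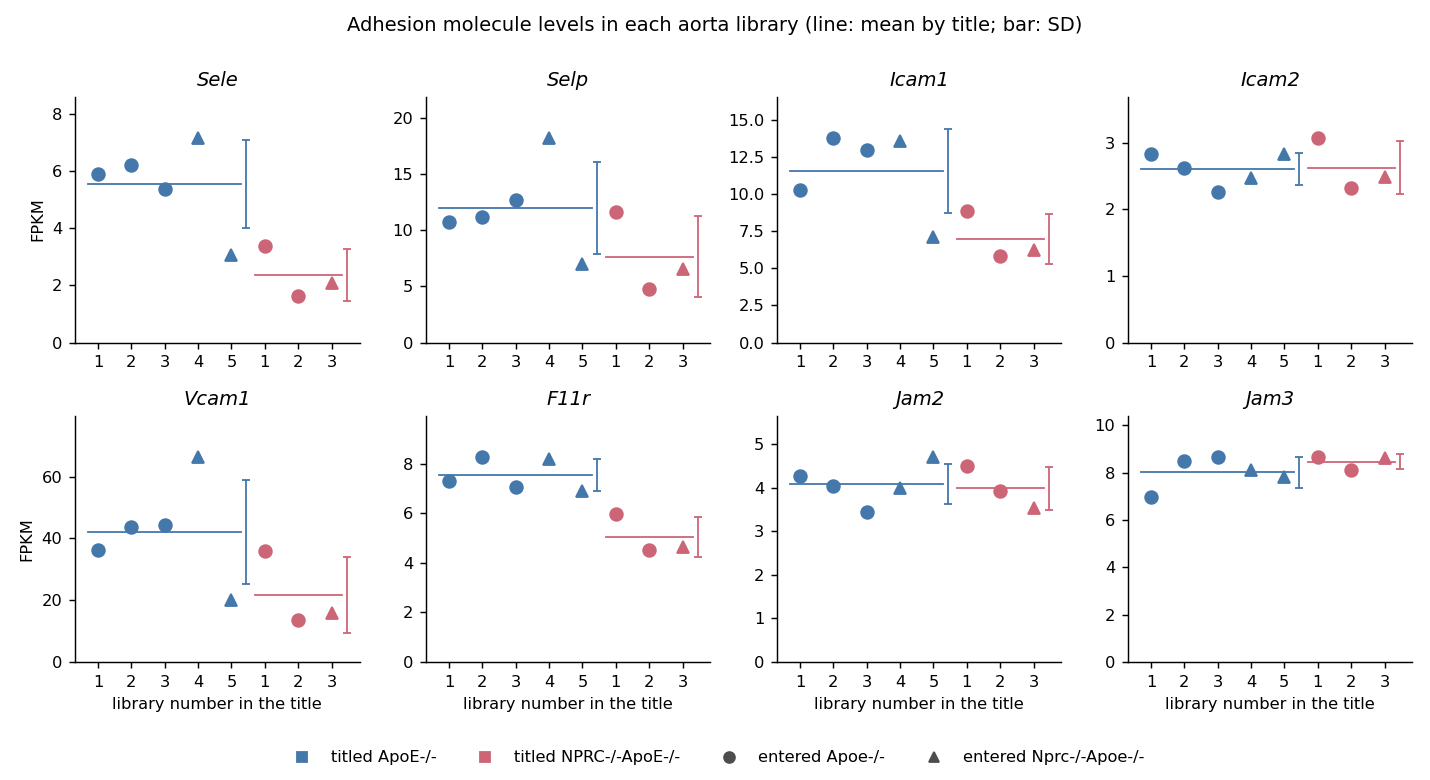
Level in FPKM (vertical axis from 0) of each adhesion molecule in the 8 aorta libraries, numbered as in their titles. Color gives the title, symbol shape the genotype entry, lines the mean by title and bars the SD; F11r is the one panel in which the 3 libraries titled NPRC-/-ApoE-/- (4.53 to 5.95) lie below all 5 titled ApoE-/- (6.88 to 8.26).

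The comparison of the titled genotypes asks whether the loss of NPRC on the ApoE-/- background goes with another level of these molecules in the aorta. By title, Sele, F11r and Icam1 were lower in NPRC-/-ApoE-/- aortas at an unadjusted p below 0.05, Vcam1 and Selp were lower without reaching it, and Icam2, Jam2 and Jam3 differed by at most 0.10 on the log2 scale. No member passed after adjustment over all 19930 loci. By genotype entry, no member differed at an unadjusted p below 0.05.

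Selectins catch the leukocyte. Sele encodes E-selectin, which endothelium makes on activation. It measured 5.88, 6.22, 5.35, 7.16 and 3.05 FPKM in ApoE-/- 1 to 5 and 3.36, 1.62 and 2.07 FPKM in NPRC-/-ApoE-/- 1 to 3. The library ApoE-/- 5 lay within the range of the NPRC-/-ApoE-/- libraries, and the other 4 ApoE-/- libraries were above all 3. The means were 5.53 ± 1.54 (SD, n = 5) and 2.35 ± 0.90 FPKM (SD, n = 3). In edgeR's quasi-likelihood test the log2 fold change was −1.23 (standard error 0.33, 95% interval −1.98 to −0.47, unadjusted p = 0.00494, adjusted p = 0.24). This was the largest change among the 8 molecules.

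Selp encodes P-selectin, which endothelial cells and platelets store in granules. It measured 10.73, 11.13, 12.71, 18.23 and 7.0 FPKM in ApoE-/- 1 to 5 and 11.64, 4.77 and 6.55 FPKM in NPRC-/-ApoE-/- 1 to 3. NPRC-/-ApoE-/- 1 lay in the middle of the ApoE-/- range and the other 2 lay below it. The log2 fold change was −0.64 (standard error 0.37, 95% interval −1.48 to 0.19, edgeR adjusted p = 0.46), from −0.36 without NPRC-/-ApoE-/- 2 to −1.04 without NPRC-/-ApoE-/- 1. Of 8 platelet markers 4 passed the filter, all 4 were lower and none had an unadjusted p below 0.05. Among these 4, Itga2b and Gp1bb share their loci with other genes, so their counts may not be those of platelets. The mean level of the 8 was 0.51 to 1.84 log2 CPM in ApoE-/- and 0.25 to 1.38 in NPRC-/-ApoE-/- libraries. Pf4, a platelet chemokine, was present at 3.56 to 9.04 FPKM. Their part in the Selp values was not tested.

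The immunoglobulin family ligands arrest the leukocyte. Icam1, the inducible ligand of the β2 integrins, measured 10.27, 13.79, 12.96, 13.54 and 7.12 FPKM in ApoE-/- 1 to 5 and 8.88, 5.80 and 6.21 FPKM in NPRC-/-ApoE-/- 1 to 3. All but ApoE-/- 5 of the ApoE-/- libraries were above the NPRC-/-ApoE-/- libraries. The means were 11.54 ± 2.84 (SD, n = 5) and 6.96 ± 1.67 FPKM (SD, n = 3), and the log2 fold change was −0.72 (standard error 0.26, 95% interval −1.32 to −0.12, unadjusted p = 0.0230 and adjusted p = 0.31 in edgeR). Without NPRC-/-ApoE-/- 2 the unadjusted edgeR p for Icam1 was 0.0916.

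Vcam1 measured 36.11, 43.62, 44.28, 66.35 and 19.93 FPKM in ApoE-/- 1 to 5 and 35.96, 13.70 and 15.74 FPKM in NPRC-/-ApoE-/- 1 to 3. ApoE-/- 4 was the highest of all, and ApoE-/- 5 was below NPRC-/-ApoE-/- 1. The means were 42.06 ± 16.75 (SD, n = 5) and 21.80 ± 12.31 FPKM (SD, n = 3). The log2 fold change was −0.96, and its 95% interval of −1.96 to 0.04 just reached 0 (standard error 0.44, edgeR unadjusted p = 0.0586, adjusted p = 0.37). It went from −0.68 without NPRC-/-ApoE-/- 2 to −1.48 without NPRC-/-ApoE-/- 1.

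Icam2, the ICAM of resting endothelium, measured 2.83, 2.62, 2.27, 2.47 and 2.83 FPKM in ApoE-/- 1 to 5 and 3.08, 2.32 and 2.49 FPKM in NPRC-/-ApoE-/- 1 to 3. The groups overlapped over most of their range. Its log2 fold change was 0.04 with a 95% interval of −0.28 to 0.37 (edgeR adjusted p = 0.92).

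The junctional adhesion molecules differed among themselves. F11r encodes JAM-A, which sits at tight junctions and also on platelets and leukocytes. It measured 7.31, 8.26, 7.06, 8.19 and 6.88 FPKM in ApoE-/- 1 to 5 and 5.95, 4.53 and 4.62 FPKM in NPRC-/-ApoE-/- 1 to 3. F11r was the one member whose titled groups did not overlap, as was the case for 7.33% of all loci tested. The means were 7.54 ± 0.64 (SD, n = 5) and 5.03 ± 0.80 FPKM (SD, n = 3). The log2 fold change was −0.56 (standard error 0.14, 95% interval −0.89 to −0.24, unadjusted p = 0.00358, adjusted p = 0.24 in edgeR), and it stayed between −0.67 and −0.46 when each library was left out in turn. With the counts of a second row that carries the name F11r added, it was −0.36.

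Jam2, which encodes JAM-B, measured 4.28, 4.05, 3.44, 4.00 and 4.71 FPKM in ApoE-/- 1 to 5 and 4.50, 3.94 and 3.53 FPKM in NPRC-/-ApoE-/- 1 to 3. Jam3, which encodes JAM-C, measured 6.97, 8.48, 8.66, 8.13 and 7.82 FPKM in ApoE-/- 1 to 5 and 8.66, 8.10 and 8.63 FPKM in NPRC-/-ApoE-/- 1 to 3. Both overlapped between the groups. Their log2 fold changes were −0.01 (95% interval −0.27 to 0.25) and 0.10 (95% interval −0.21 to 0.41), with edgeR adjusted p-values of 0.97 and 0.77.

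Within a library, F11r minus Jam2 was −0.88 ± 0.22 log2 CPM in ApoE-/- (SD, n = 5) and −1.43 ± 0.11 in NPRC-/-ApoE-/- (SD, n = 3), without overlap. The two-sided exact permutation p was 0.036, the smallest that 5 against 3 allows. F11r minus Jam3 went from 0.16 ± 0.15 to −0.51 ± 0.19 and Sele minus Selp from −1.70 ± 0.23 to −2.27 ± 0.12, with the same exact permutation p of 0.036 (n = 5 and 3). Icam1 minus Icam2 was 3.30 ± 0.51 and 2.58 ± 0.12 (exact permutation p = 0.071, n = 5 and 3). Sele minus Icam2 (p = 0.071) and Vcam1 minus Icam1 (p = 0.357) were also compared by the exact permutation test. After adjustment over these 6 pairs, the first 3 had p = 0.072 by permutation. The pairs were chosen after their values were seen. By genotype entry the smallest exact permutation p of the 6 pairs was 0.571, for Icam1 minus Icam2.

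By title, 3 of the 8 members had an unadjusted p below 0.05 in edgeR, all lower in NPRC-/-ApoE-/-, beside 7.22% of all loci that were lower at that level and 13.8% in either direction. After adjustment it was 0 of 8 members, and 0.00502% of all loci. In all, 6 members were lower, beside 51.0% of all loci tested. The median log2 fold change of the 8 was −0.60, beside −0.01 over all loci tested. As the members were chosen with earlier results of these data known, these shares and medians are a description and not a test. The exact permutation test of log2 CPM gave p = 0.036 for F11r and 0.071 for Icam1 and Sele by title (n = 5 and 3, two-sided). With title and genotype entry as 2 terms of 1 fit, Sele (−1.24), F11r (−0.56) and Icam1 (−0.73) again had an unadjusted p below 0.05 for the title, and no member did for the entry.

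By genotype entry, 0 of 8 members had an unadjusted p below 0.05 in edgeR, beside 1.31% of all loci. None separated the groups without overlap, beside 0.968% of all loci. Of the members 2 were lower, beside 50.7% of all loci, and their median log2 fold change was 0.02. Icam1 had the largest value, −0.17 (95% interval −0.96 to 0.63). For Vcam1 it was 0.02, with an interval of −1.19 to 1.23 that includes the value found by title, and for Sele −0.09, with −1.24 to 1.06. For F11r it was 0.02 with an interval of −0.52 to 0.55, which does not include the value found by title. All adjusted p-values were 1. Without ApoE-/- 4 the median by entry was −0.40, with −0.96 for Vcam1, −0.82 for Sele, −0.63 for Icam1, −0.59 for Selp and −0.21 for F11r.

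**Figure D2:**
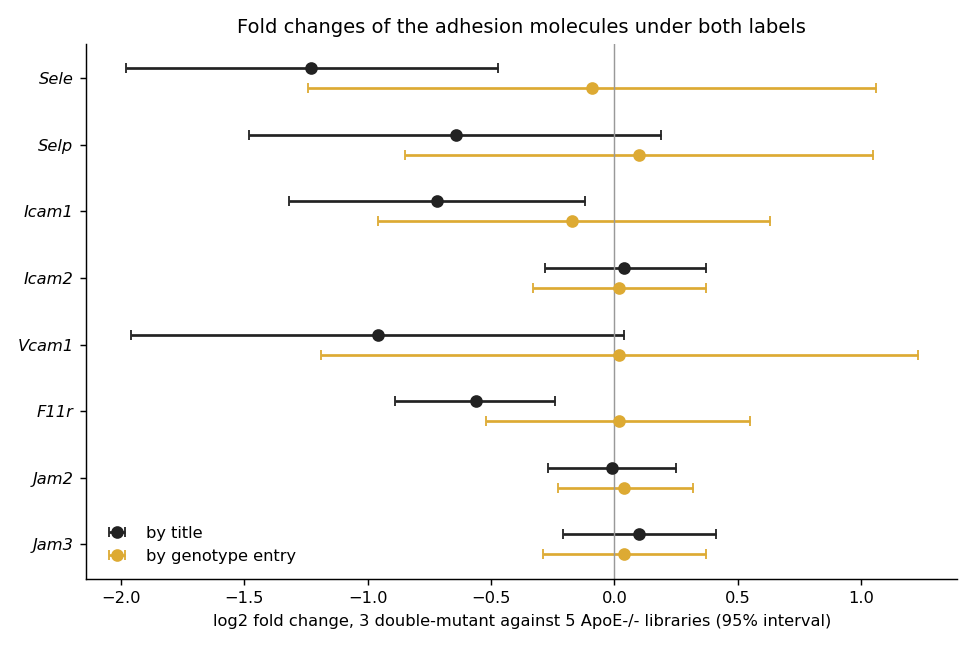
Log2 fold change of each adhesion molecule (horizontal axis, points) with its 95% interval (bars) from edgeR, NPRC-/-ApoE-/- against ApoE-/-, with libraries grouped by title (black) or by genotype entry (yellow). By title the intervals of Sele, Icam1 and F11r lie below 0, and by genotype entry all 8 include 0.

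In the 4 libraries whose labels name one genotype, only values can be set side by side, 3 ApoE-/- against 1 NPRC-/-ApoE-/-. Sele was 5.35 to 6.22 FPKM against 2.07, Selp 10.73 to 12.71 against 6.55, Icam1 10.27 to 13.79 against 6.21, Vcam1 36.11 to 44.28 against 15.74 and F11r 7.06 to 8.26 against 4.62. These 5 molecules were below all 3 ApoE-/- libraries in the single NPRC-/-ApoE-/- library. Icam2 (2.27 to 2.83 against 2.49), Jam2 (3.44 to 4.28 against 3.53) and Jam3 (6.97 to 8.66 against 8.63) lay within the range. With 1 library on one side there was no test.

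Across the 8 libraries, the same 5 molecules varied together whatever the label. In log2 CPM, all 10 pairs among Icam1, Vcam1, Sele, Selp and F11r had a Pearson's r between 0.84 and 0.98. The highest was that of Vcam1 and Selp (r = 0.98, exact permutation p = 0.000174 over 8 libraries, adjusted 0.00139 over 28 pairs, Spearman's rho = 0.95 with p = 0.00114). Sele and F11r followed (r = 0.97, exact permutation p = 0.000174, adjusted 0.00139, rho = 0.98 with p = 0.000397, n = 8).

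All 10 pairs passed after adjustment over the 28 pairs by r, and 9 by rho. The exception by rho was Selp with F11r (r = 0.84, exact permutation p = 0.00898, n = 8, adjusted 0.0251; rho = 0.76, p = 0.0368, adjusted 0.103). Without the 2 libraries farthest from the median of the first gene, r was still 0.60 to 0.98 in the 10 pairs. With the means of the titled groups removed it was 0.89 to 0.98, so that the relation held within the titles. Loci outside the list followed each molecule of these pairs more closely than any other member did, as given further on. The share of all loci that vary with them to this degree was not counted.

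Icam2, Jam2 and Jam3 had an r with the 5 molecules between −0.15 and 0.27. With the means of the titled groups removed, the r of Jam3 was higher, from 0.39 with Sele to 0.64 with Icam1. That of Icam2 was also higher, from 0.12 with Icam1 to 0.43 with F11r. For Jam2 it was −0.27 with Icam1 to 0.13 with F11r. Icam2 and Jam2 had r = 0.65 with each other (exact permutation p = 0.0732, adjusted 0.186, n = 8; rho = 0.62, p = 0.115). No pair with Icam2, Jam2 or Jam3 passed the adjusted threshold.

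**Figure D3:**
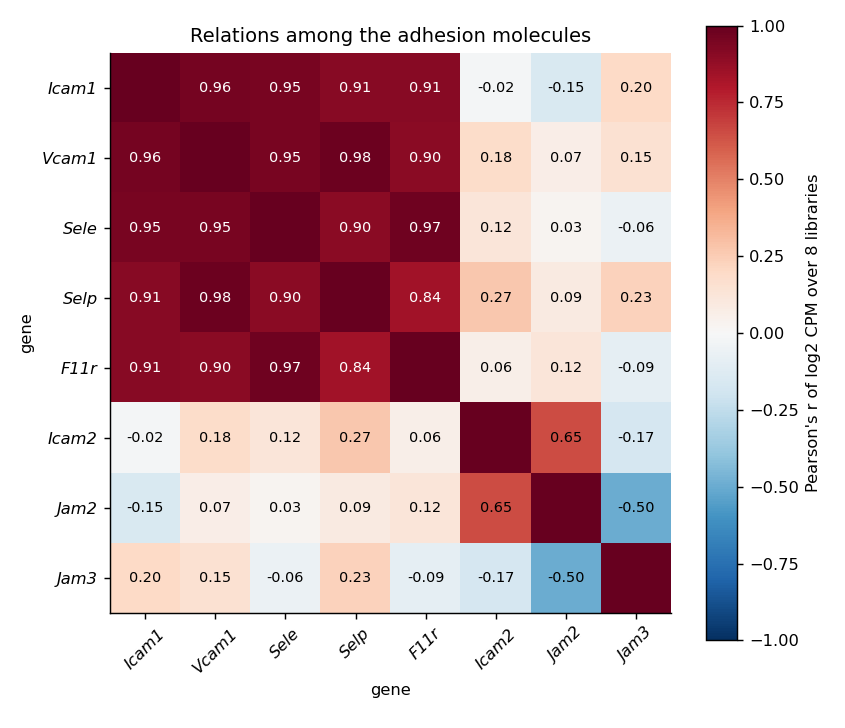
Pearson's r between the log2 CPM of each pair of adhesion molecules over the 8 libraries, as color and printed value. The block of Icam1, Vcam1, Sele, Selp and F11r has values of 0.84 to 0.98, and pairs of these with Icam2, Jam2 or Jam3 have −0.15 to 0.27.

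The loci most like each molecule over the 8 libraries were sought among 18612 loci with a mean of at least 1 FPKM, by Pearson's r of log2 CPM and without a test. The nearest to Sele was Itga4 (r = 0.988), which encodes the α4 chain of the VCAM1-binding integrin VLA-4 on leukocytes, followed by Nrm and Ifi207. For Vcam1 they were Tnfsf8 (r = 0.992), the ligand of CD30, the locus of Rnf149 and Kcnk6. Those of Icam1 were Limd2 (r = 0.995), Sh2d1b1 and Ogfr, those of Selp Vill (r = 0.991), Galnt7 and Gm16014, and those of F11r Erlec1 (r = 0.993), Pde7b and the locus of 1110038B12Rik.

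The nearest loci to the steady molecules had a lower r. They were Edc3 for Icam2 (r = 0.937, then Gm37694 and Mon1a), Rpe for Jam2 (r = 0.956, then Mettl16 and Pex7) and Pgf, placental growth factor, for Jam3 (r = 0.980, then the locus of Ccar2 and Kdm5b). None of the nearest loci was another member.

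As the wall is a mix of cells, each molecule was also set beside the endothelial markers of the same library, as its log2 CPM minus their mean. Vcam1 is also expressed by smooth muscle and fibroblasts, Icam1 by macrophages, and F11r and Jam3 by platelets and other cells. The value is therefore not a level per endothelial cell. Sele was −1.52 ± 0.58 in ApoE-/- (SD, n = 5) and −2.67 ± 0.54 in NPRC-/-ApoE-/- (SD, n = 3), a difference of −1.15 (exact permutation p = 0.071). For F11r the difference was −0.49 (exact permutation p = 0.071, n = 5 and 3), for Vcam1 −0.89, for Icam1 −0.62 and for Selp −0.58. Jam3 (0.18), Icam2 (0.10) and Jam2 (0.06) differed little. The permutation p was above 0.071 for the other 6 molecules. By genotype entry the difference was −0.10 for Sele (exact permutation p = 0.929) and 0.05 for F11r (exact permutation p = 0.857, n = 5 and 3). Without the subtraction, the differences by title were −1.22 for Sele, −0.56 for F11r, −0.96 for Vcam1, −0.69 for Icam1 and −0.65 for Selp. The endothelial mean spanned only 5.61 to 5.85 log2 CPM, so the subtraction changed little.

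Macrophage markers moved with the lower molecules. All 10 macrophage markers (Cd68, Adgre1, Csf1r, Cd14, C1qa, C1qb, C1qc, Mrc1, Mpeg1 and Fcgr1) were lower by title, 6 of them at an unadjusted edgeR p below 0.05 and none after adjustment. Of all loci tested, 51.0% were lower by title and 7.22% were lower at an unadjusted edgeR p below 0.05. None of the macrophage markers was at 0 in any library, and Cd68 shares its locus with other genes. The mean level of the macrophage markers was 6.31 to 7.76 log2 CPM in ApoE-/- and 5.54 to 6.80 in NPRC-/-ApoE-/- libraries. Vcam1 (r = 0.95), Icam1 (r = 0.95), Sele (r = 0.91), Selp (r = 0.90) and F11r (r = 0.90) followed this mean over the 8 libraries.

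The adjusted exact permutation p-values of these 5 were 0.00873 to 0.0105 by r and 0.0122 to 0.0410 by rho (0.83 to 0.95), over 32 relations of the 8 molecules to 4 marker lists. Without the 2 libraries farthest from the median of the molecule r was 0.75 to 0.92, and within titles it was 0.81 to 0.92. Icam2 (r = 0.00), Jam2 (r = 0.02) and Jam3 (r = 0.15) did not follow the macrophage mean (exact permutation p from 0.722 to 0.998, n = 8), although within titles the r of Jam3 was 0.59. The lists were related to the molecules after their values were seen.

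None of the 8 molecules was related to the mean of the endothelial markers at an adjusted permutation p below 0.05 (r from −0.57 for Jam3 to 0.10 for F11r, n = 8, smallest adjusted p = 0.286). Within titles the r was lower for the 5 molecules, −0.71 for Selp, −0.68 for Vcam1, −0.64 for F11r, −0.53 for Icam1 and −0.51 for Sele. The 7 fibroblast markers, all lower by title and 2 of them at an unadjusted p below 0.05, had r of 0.90 to 0.95 with the 5 molecules (rho 0.88 to 0.98, adjusted exact permutation p by r 0.00238 to 0.0105, n = 8). Their mean was 8.50 to 9.51 log2 CPM in ApoE-/- and 7.82 to 8.65 in NPRC-/-ApoE-/- libraries. The 8 smooth muscle markers were all higher, 7 at an unadjusted edgeR p below 0.05, with a mean of 8.51 to 8.94 and 8.98 to 9.73 log2 CPM. F11r (r = −0.88) and Sele (r = −0.83) ran against this mean, with adjusted exact permutation p-values of 0.0108 and 0.0220 (n = 8, rho = −0.90 and −0.86). Within titles the r of both was weaker, −0.60 for F11r and −0.51 for Sele. No marker of these lists was at 0 in a library. By genotype entry none of the macrophage, fibroblast or smooth muscle markers had an unadjusted edgeR p below 0.05, and the medians of their log2 fold changes were −0.17, −0.08 and 0.17. The directions were partly the same under this label. Lower by entry were 10 of 10 macrophage and 5 of 7 fibroblast markers, and 7 of 8 smooth muscle markers were higher. Of all loci tested, 50.7% were lower by entry. The part of these cells in the levels of the adhesion molecules was not tested.

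**Figure D4:**
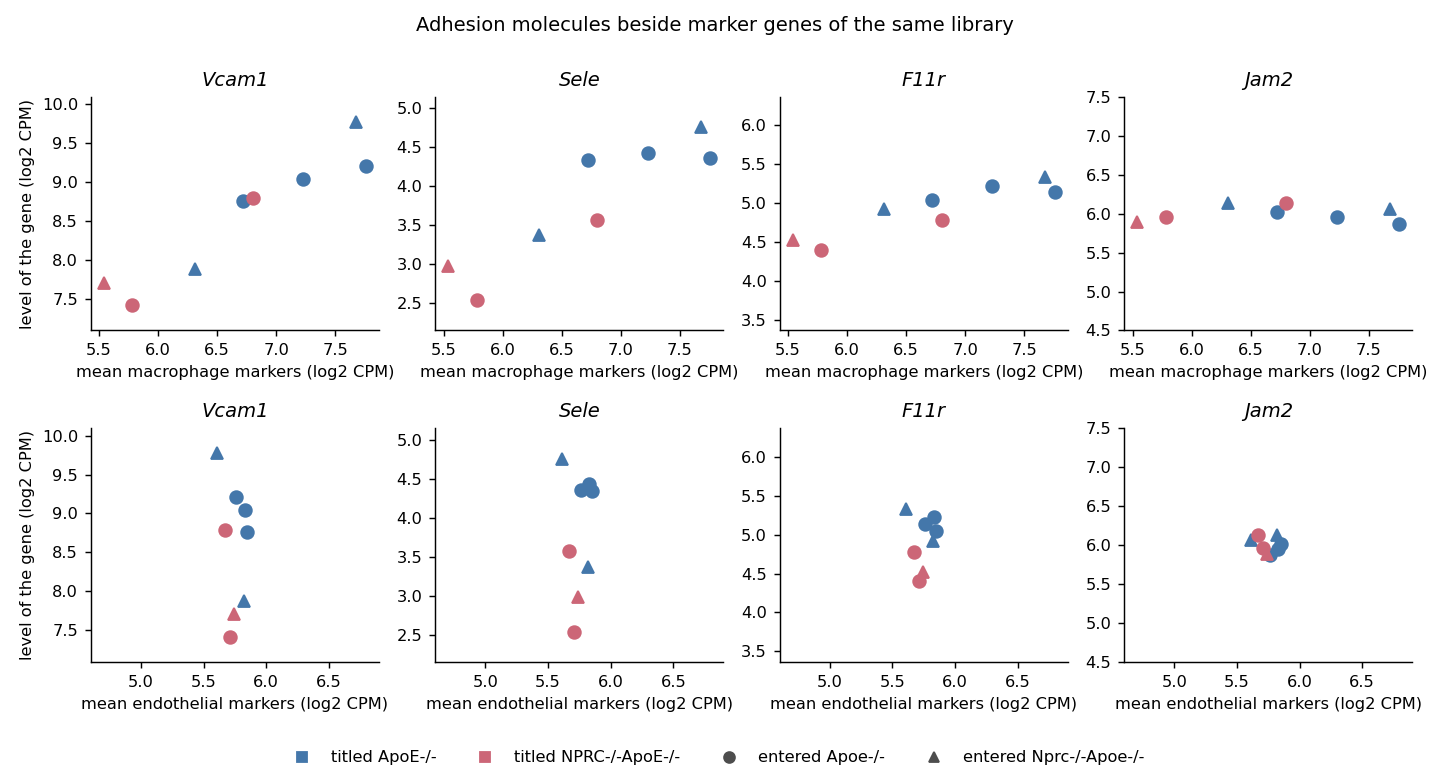
Level of Vcam1, Sele, F11r and Jam2 (vertical axes, log2 CPM, all spanning the same number of units) against the mean of 10 macrophage markers (upper row) and of 10 endothelial markers (lower row) in each of the 8 libraries, with color for the title and shape for the genotype entry. Vcam1, Sele and F11r climb with the macrophage mean (r = 0.95, 0.91 and 0.90) and Jam2 does not (r = 0.02), while the endothelial mean spans only 5.61 to 5.85.

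Partners of these molecules on the leukocyte were examined next. By title, of 11 tested genes for leukocyte integrins and selectin ligands 9 were lower, 6 of them at an unadjusted edgeR p below 0.05, with a median log2 fold change of −0.92 over the list. The largest changes were those of Itgax (−1.26, standard error 0.50), the αX integrin chain of myeloid cells, Selplg (−1.25, standard error 0.42), the P-selectin ligand PSGL-1, and Spn (−1.21, standard error 0.53), which encodes CD43. These 3 were among the 6. Itgb1 (0.22) and Glg1 (0.17) were the 2 with a higher value, named after their values were seen. None passed after adjustment. For comparison with this and the following lists, 51.0% of all loci tested were lower by title. At an unadjusted edgeR p below 0.05, 7.22% were lower. The lists were also chosen with earlier results of these data known, so the counts describe them and do not test them.

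Genes of the cytokine and NF-kB input were lower in 18 of 18, 6 at an unadjusted edgeR p below 0.05, with a median of −0.43. Il6 (−3.48, standard error 1.15, edgeR adjusted p = 0.28), Il1b (−2.25, standard error 0.83) and Il1a (−1.23, standard error 0.42) had the largest values. Il6 ranged from 0.06 to 8.18 FPKM over the 8 libraries.

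The junction and transmigration genes did not move one way. Of 11 genes 6 were lower and 5 higher, and the median was −0.06. Only Mcam (0.45, edgeR unadjusted p = 0.0393), an adhesion molecule of smooth muscle and endothelium, passed an unadjusted p below 0.05. Cldn5 (−0.54), a tight junction protein of endothelium, and Cd47 (−0.39) did not (edgeR unadjusted p = 0.0748 and 0.066).

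Other endothelial ligands were lower in 5 of 5 tested genes, 1 of them at an unadjusted edgeR p below 0.05. That was the locus shared by Cadm3 and Ackr1 (−0.90, unadjusted p = 0.00701), the latter a chemokine-binding receptor of venules. Cx3cl1 (−0.93), the membrane-bound chemokine fractalkine, and Cd34 (−0.30) followed. Madcam1, Glycam1, Icam4, Icam5, Igsf5 and Jaml were in the table but under the filter.

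Proteases that shed adhesion molecules were lower in 5 of 5 with none at an unadjusted edgeR p below 0.05, with the largest values for Adam8 (−1.01), Adam10 (−0.38) and Mmp9 (−0.30). Of 6 linkers between adhesion molecules and actin, Ezr, which encodes ezrin, was lower (−0.81, standard error 0.24), and Actn4 (0.55, standard error 0.15) and Flna (0.51, standard error 0.22) were higher at the unadjusted threshold in edgeR. By genotype entry no gene of these 6 lists had an unadjusted edgeR p below 0.05, and the list medians were between −0.16 and 0.06. Lower by entry were 8 of 11 leukocyte genes, 14 of 18 genes of the cytokine and NF-kB input and 6 of 11 junction genes. So were 4 of 5 other endothelial ligands, 4 of 5 proteases and 2 of 6 linkers, beside 50.7% of all loci.

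In the annotation GENCODE M21 of GRCm38, the rows of Icam1 (chromosome 9, 21015985 to 21028817, plus strand), Icam2 (chromosome 11, 106377656 to 106388075, minus strand), Vcam1 (chromosome 3, 116109949 to 116129688, minus strand), Sele (chromosome 1, 164048234 to 164057677, plus strand), Selp (chromosome 1, 164115264 to 164150026, plus strand) and F11r (chromosome 1, 171437535 to 171464603, plus strand) had the start and end of their gene. The row of Jam2 (chromosome 16, 84774123 to 84827680, plus strand) ended 1752 bases past it and also carried the name Gm25908, and that of Jam3 (chromosome 9, 27097384 to 27155418, minus strand) ended 3 bases from the annotated end. Gm47079 overlaps Icam1, Gm43109 overlaps Vcam1, Gm16587 and Gm16548 overlap Selp and Gm48796 overlaps Jam3, each on the other strand. F11r had a second row on the other strand with 34.1% of the counts that carry its name. The library kit kept strand, but whether the counting used it is not given in the sources used here, so reads of these overlapping genes may be included.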

How the data were processed

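Poly(A) RNA of 8 whole aortas was sequenced in paired ends. The authors trimmed the reads (cutadapt 1.9), mapped them with HISAT2 and assembled loci with StringTie, and deposited the count of each locus per library, without normalization, together with FPKM values, which the authors normalized to length and mapped fragments. The submitters' processing notes name GRCm38. Of 48607 loci, 1686 without a gene name (0.486 to 0.743% of counts) were left out. The table had 0 columns without a sample.

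The 19930 named loci that reached 1 FPKM in 3 or more libraries were tested in R 4.3.3 with edgeR 4.0.16 (TMM, quasi-likelihood test, Benjamini-Hochberg adjustment), grouped by title and by genotype entry. The fit was tested on simulated data. Log2 CPM used a prior count of 2, and single values were compared by two-sided exact permutation tests in scipy 1.17.1. Alternatives used DESeq2 1.42.0, limma 3.58.1 on log2(FPKM + 1) or log2(FPKM + 0.1), other size factors and filters, a replicate block, summed rows of a symbol, both labels in 1 fit and each library left out.

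The members and gene lists were chosen with earlier results of these data known. Named genes are the 8 members, Npr3, up to 3 genes per list with the largest absolute log2 fold change by title, and the 3 loci nearest to each member. Markers of T and B cells, fat, lymphatic, Schwann and mesothelial cells were also listed.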

Additional observations from a re-analysis of the deposited data

Results flagged for a closer look

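With libraries grouped by genotype entry, the library titled NPRC-/-ApoE-/- 2 stood far from the other 4 libraries entered as Apoe-/-. Its level of Vcam1 was 7.42 log2 CPM, and the others had 8.76 to 9.21. Its level of Selp was 4.70 log2 CPM, and the others had 5.81 to 6.21. In the same entered group, Icam2 relative to the endothelial markers was −2.84 in the library titled NPRC-/-ApoE-/- 1 and −3.25 to −3.17 in the others. In each case the gap to the nearest library exceeded Dixon's 95% value for the range of the group. Of 32 groups examined 3 stood out in this way, where chance would give about 1.6.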

How the results depend on the processing

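By title, Icam1, Vcam1, Sele, Selp and F11r were lower under every alternative that gave a value for them, F11r and Sele with an unadjusted p below 0.05 in each edgeR, DESeq2 or limma fit. The exact permutation tests gave Sele 0.071 by level, and relative to the endothelial markers they gave 0.071 for Sele and for F11r, and 0.107 for F11r relative to Pecam1 and Cdh5 alone. With summed rows F11r was −0.36 by title. An adjusted p below 0.05 was reached in DESeq2 by Sele (0.0159) and F11r (0.0231), and in limma with array quality weights by Sele (0.0348), F11r (0.0348), Icam1 (0.0421) and Vcam1 (0.0495), and under no other alternative. By title, 3364 loci had an unadjusted p below 0.05 in DESeq2 and 5759 with array quality weights, against 2742 in the main fit. The share of all loci at an adjusted p below 0.05 under these alternatives is not given here. Members at an unadjusted p below 0.05 numbered 5 by title with array quality weights. When each library was left out in turn they numbered 2 to 5, with 5 without ApoE-/- 5 or without NPRC-/-ApoE-/- 1, and 2 without NPRC-/-ApoE-/- 2 or without NPRC-/-ApoE-/- 3. All loci at this level numbered 5759 with array quality weights, 733 with a mean of at least 5 FPKM and 4548 without a filter, and from 1293 (without NPRC-/-ApoE-/- 2) through 1319 (without NPRC-/-ApoE-/- 3) to 4284 (without NPRC-/-ApoE-/- 1). By genotype entry they numbered 423 with array quality weights, 24 with at least 5 FPKM, 951 without a filter and 406 with both labels in 1 fit. They numbered 173 without NPRC-/-ApoE-/- 3, 436 without NPRC-/-ApoE-/- 2, 603 without ApoE-/- 5 and 719 without ApoE-/- 4. The filters change how many loci are tested. The cause of the other shifts was not tested.

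Values near 0 changed sign. By title, Jam2 was 0.02 with summed rows or upper-quartile factors and −0.08 to 0.04 with a library left out, and Icam2 was −0.05 with array quality weights and −0.06 to 0.15 with a library left out. By genotype entry the median of the members was −0.40 to 0.15 with a library left out, Vcam1 −0.96 to 0.35, Selp −0.59 to 0.36, Sele −0.82 to 0.22, Icam1 −0.63 to 0.02, F11r −0.21 to 0.20, Jam3 −0.03 to 0.12, Jam2 −0.01 to 0.11 and Icam2 −0.01 to 0.08. The lowest values of the median, Vcam1, Selp and F11r came without ApoE-/- 4. By entry, limma on log2(FPKM + 1) and on log2(FPKM + 0.1) gave −0.21 and −0.22 for Vcam1, −0.03 and −0.04 for Selp, −0.01 in both for Icam2 and −0.02 in both for F11r. Array quality weights gave −0.57 for Vcam1, −0.31 for Selp, −0.07 for F11r, −0.03 for Icam2 and 0.00 for Jam3. Both labels in 1 fit gave −0.12 for Vcam1 and −0.02 for F11r, at least 5 FPKM gave −0.03 for Vcam1, and summed rows gave −0.05 for F11r. Levels in log2(FPKM + 1) by entry differed by −0.01 for Icam2 and −0.02 for F11r. Relative to Pecam1 and Cdh5 alone they differed by −0.06 for Selp, −0.04 for F11r, −0.03 for Icam2, −0.02 for Jam3 and −0.01 for Jam2.

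The deviations of libraries with the same number had correlations of −0.352, −0.143 and −0.007 over the 3 numbers. Their mean was −0.167, against 0.084 for libraries with other numbers. Whether the numbers pair the libraries was not tested. With the number as a replicate block over 6 libraries, 1751 loci had an unadjusted p below 0.05 against 2519 in the same libraries without the block, 4 members did in both, and Jam2 was at 0.05 in both. Keeping loci without a gene name, an alternative chosen after seeing the data, changed no member's side of the threshold. Each member had at least 342 counts in every library, and its interval reflects the spread between the libraries.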

Other observations

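Of the marker lists not set beside the adhesion molecules in the report, that for Schwann cells separated the titled groups. Its mean over 4 genes was 2.68 to 3.17 log2 CPM in libraries titled ApoE-/- and 1.02 to 1.86 in those titled NPRC-/-ApoE-/-. All 3 tested genes were lower at an unadjusted edgeR p below 0.05, beside 7.22% of all loci. By genotype entry none was, and the median log2 fold change was 0.03. The mean of 8 fat markers was 5.28 to 7.54 and 6.55 to 7.25 log2 CPM, and that of 5 lymphatic markers, which mark another endothelium, 3.71 to 4.42 and 3.41 to 4.12. The 8 T and B cell markers, of which 1 passed the filter, were at −0.01 to 2.58 and −1.40 to 0.23, and the 4 mesothelial markers, of which none passed, at −3.38 to 1.92 and −4.17 to −0.95. The part of these cells in the adhesion molecules was not tested.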
